A study of Mus musculus with 48 samples.

Results

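The replication-dependent histone genes were examined in the cerebral cortex of B6 and *APOE*-TR mice. They were taken as every row of the 2 expression tables whose symbol begins with Hist1h, Hist2h, Hist3h or Hist4h, a rule that uses names and no measured values. It found 60 genes among the 18943 rows of the *APOE*-TR table and 34 among the 27086 rows of the B6 table, and all 34 were also in the *APOE*-TR table. The 60 genes encode 5 linker histones H1, 18 H2A, 19 H2B, 5 H3 and 13 H4, and 46 of them are in the Hist1 cluster on chromosome 13, 10 in Hist2 on chromosome 3, 3 in Hist3 on chromosome 11 and 1 in Hist4 on chromosome 6. Of the 34 in the B6 table, 3 encode H1, 6 H2A, 15 H2B, 3 H3 and 7 H4. *Hist3h2bb-ps* and *Hist1h2al* are annotated as processed pseudogenes in GENCODE M21.

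H2A, H2B, H3 and H4 form the protein core around which DNA is wrapped in the nucleosome, and H1 binds the linker DNA between cores. The replication-dependent genes supply these proteins mainly during DNA synthesis, and most of their mRNAs end in a conserved stem-loop instead of a poly(A) tail. Some of them also give polyadenylated transcripts in cells that no longer divide, such as neurons, where replacement histones made from ordinary polyadenylated mRNAs supply much of the turnover. Libraries prepared by poly(A) selection, as here, therefore sample this gene family in part.

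RNA was measured in 48 mice, 4 in each of 12 groups. Female and male C57BL/6J mice (B6, wild type, age 4 months in the labels) breathed re-aerosolized nPM (nano-sized particulate matter collected from urban air) or filtered air for 8 weeks. Female and male ApoE-TR mice (age 6 months), in which human *APOE*3 (genotype E3) or *APOE*4 (genotype E4) replaces mouse *Apoe* in every cell, were exposed for 15 weeks in a separate experiment. Both experiments used 5 hr per day on 3 days per week, and the questions were which genes respond to nPM and whether sex and *APOE* allele alter the response. Because the strains came from separate exposures and separate tables with different gene models, levels are not compared between them. *Hist3h2a*, for example, spans 2147 bases in the B6 table and 509 in the *APOE*-TR table.

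The stem-loop that ends these mRNAs is printed for genes on which the results below turn, to show the feature by which poly(A) selection and the gene family meet. Capitals mark the stem-loop, in lower case are up to 5 bases on each side, and all are read 5′ to 3′ from GENCODE M21 transcripts (GRCm38).
Hist1h2bg: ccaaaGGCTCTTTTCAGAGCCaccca
Hist2h2aa1: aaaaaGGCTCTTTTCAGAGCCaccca
Hist1h1c: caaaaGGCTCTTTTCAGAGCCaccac
Hist3h2ba: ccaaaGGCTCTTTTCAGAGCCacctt
Hist3h2a: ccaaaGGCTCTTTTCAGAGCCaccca
Hist1h2bm: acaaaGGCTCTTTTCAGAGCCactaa
Hist1h4i: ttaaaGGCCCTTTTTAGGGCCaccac
The capitals of *Hist1h2bg* are at chr13:23571843-23571858 (plus strand), those of *Hist2h2aa1* at chr3:96246032-96246047 (plus strand), those of *Hist1h1c* at chr13:23739512-23739527 (plus strand) and those of *Hist1h4i* at chr13:22040966-22040981 (minus strand). The pattern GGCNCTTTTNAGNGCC, searched on the sense strand of all annotated transcripts, was in 37 of the 60 histone genes and in 47 of 55341 genes in all (0.0849%). It was in 3 H1, 11 H2A, 10 H2B, 4 H3 and 9 H4 genes. The spelling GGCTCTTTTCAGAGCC was in 24 of them, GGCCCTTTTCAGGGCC in 7, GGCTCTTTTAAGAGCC in 3, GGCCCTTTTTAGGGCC in 2 and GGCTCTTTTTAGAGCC in 1. In 19 of the 37 genes an annotated transcript continued for more than 100 bases past the stem-loop, as in *Hist1h1c* (840 bases), *Hist3h2a* (1643 bases), *Hist1h2bh* (1214 bases) and *Hist1h4i* (330 bases). The remaining 18 ended within 100 bases, as in *Hist2h2aa1* (35 bases) and *Hist1h2bm* (46 bases). In the *APOE*-TR table, however, the listed rows of 18 of these 19 genes end 4 to 9 bases past the stem-loop, *Hist1h2be* being the exception, so sequence beyond it is outside the listed genes and levels were not compared by this feature.

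Promoter sequence was inspected for the octamer ATTTGCAT, a motif known from H2B promoters, because several H2A and H2B genes are transcribed away from a shared promoter. RefSeq promoters (GRCm38.p6, from 250 bases before to 50 after the start) were matched to 55 of the 60 genes. The octamer, on either strand, was in 6 of 16 H2B and 6 of 17 H2A genes and in none of the 5 H1, 5 H3 and 12 H4 genes, which makes 12 of 55, against 532 of 27025 promoters in all (1.97%). A match is a description of letters and not of a bound site. Capitals mark the octamer.
Hist1h2bg: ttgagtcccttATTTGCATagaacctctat
Hist1h2ae: atagaggttctATGCAAATaagggactcaa
Hist1h2bk: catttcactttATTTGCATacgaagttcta
Hist1h2ah: tagaacttcgtATGCAAATaaagtgaaatg
The windows of *Hist1h2bg* (plus strand) and *Hist1h2ae* (minus strand) are the same bases, chr13:23571330-23571359, and those of *Hist1h2bk* and *Hist1h2ah* are likewise one stretch, chr13:22035780-22035809. Per kilobase of listed span, the median level of *Hist1h2bg* over *APOE*-TR mice was 3.18 CPM (read counts scaled to the size of the library) and that of its H2A neighbour *Hist1h2ae* was 0.137 CPM. The levels of *Hist1h2bk* and *Hist1h2ah* were 0.784 and 0.132 CPM per kilobase. In both pairs the H2B gene was the higher. The values of *Hist1h2ae* and *Hist1h2ah* rest on medians of 2 and 1 estimated reads and include the value given to a gene without reads. Of their 50-base stretches, 7.9% are unique in *Hist1h2ah* and 25.8% in *Hist1h2bk*. In the other pair these shares are 56.8% in *Hist1h2ae* and 50.3% in *Hist1h2bg*.

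Few reads support most of these genes. The authors' CPM of a gene without reads is the lowest value of each mouse, so reads were estimated from the steps above it. On this estimate the histone genes together held 91 to 1246 reads in each B6 mouse and 969 to 3459 in each *APOE*-TR mouse. Of the 60 genes, 24 had reads in all 32 *APOE*-TR mice and 19 had a median of 10 or more reads. Of the 34 in the B6 table, 4 had reads in all 16 mice, namely *Hist1h1c*, *Hist1h2bc*, *Hist2h2be* and *Hist3h2a*, and 6 had a median of 10 or more. The authors counted uniquely mapped reads only, and 17 of the 60 genes have fewer than 20% of their 50-base stretches to themselves among annotated transcripts. *Hist2h2aa1* and *Hist2h2aa2* share every stretch with another transcript (0% unique), so how reads were divided between these 2 genes is uncertain. *Hist1h2be* is listed over 37456 bases and *Hist1h2al* over 2984, against 339 for its annotated pseudogene transcript, so reads of these rows need not all come from the named gene, and whether counting used strand is not given in the sources used here.

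Within the *APOE*-TR table, H2B genes were the highest class per length. Among the 53 genes listed over at most 1000 bases, the median level per kilobase was 0.858 CPM in 13 H2B genes, 0.219 CPM in 5 H3, 0.179 CPM in 13 H4, 0.145 CPM in 17 H2A and 0.0893 CPM in 5 H1 genes. These levels include the value given to a gene without reads. *Hist1h1a* and *Hist1h2ak*, each with a median of 0 reads, still had 0.0484 and 0.0630 CPM per kilobase. The order of the classes below H2B is therefore uncertain. Single genes departed widely from their class, and the 2 highest per kilobase were neighbours in the Hist3 cluster, *Hist3h2a* (9.89 CPM per kilobase; chromosome 11 from 58954685 to 58955193) and *Hist3h2ba* (9.33 CPM per kilobase; chromosome 11 from 58948911 to 58949373). The linker histone gene *Hist1h1c* (chromosome 13 from 23738807 to 23739532) followed at 3.22 CPM per kilobase. The highest H3 gene was *Hist2h3c2* at 0.340 CPM per kilobase, the highest H4 gene *Hist1h4i* at 0.466 CPM per kilobase. Without regard to length, *Hist1h2bc*, *Hist2h2be*, *Hist3h2ba*, *Hist3h2a* and *Hist1h1c* held 64.4% of the summed histone CPM in the *APOE*-TR table and 78.03% in the B6 table, so the sums below rest mostly on these 5.

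The summed CPM of the histone genes was highest in *APOE*3 females under filtered air. In those 4 mice it was 88.8 in control 63, 89.6 in control 52, 127 in control F6 and 169 in control 61, a mean of 119 ± 38.1 CPM (SD, n = 4 mice). In the 4 *APOE*3 females under nPM the sums were 56.03, 58.9, 70.3 and 76.6 CPM. *APOE*4 females gave 58.5 ± 8.33 CPM under air and 59.3 ± 7.55 CPM under nPM. The males of both alleles were lower, with means from 33.8 ± 4.91 to 37.1 ± 4.34 CPM over their 4 groups. All 16 *APOE*-TR females (47.5 to 169 CPM) therefore exceeded all 16 males (26.7 to 43.2 CPM). In B6 mice the group means lay between 30.02 ± 2.90 CPM in nPM males and 38.8 ± 11.2 CPM in control males and the groups overlapped, with 1 control male, male 0, at 54.1 CPM against 29.3 to 40.2 CPM in the others. The value of a gene without reads, counted once for each gene, adds up to 0.878 to 8.62 CPM in B6 mice and 1.32 to 2.88 CPM in *APOE*-TR mice. It was largest in B6 control male 6, the mouse with the fewest reads, whose histone sum was 31.7 CPM. The B6 sums therefore partly follow depth. The sums of all listed values also differ between mice and were highest in controls 61 (880442) and F6 (792914). Scaled to the total of listed values of each mouse, the sums were 121 to 192 in the 4 *APOE*3 control females, 70.8 to 104 in the other 12 *APOE*-TR females and 39.4 to 64.1 in the males.

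**Figure D1:**
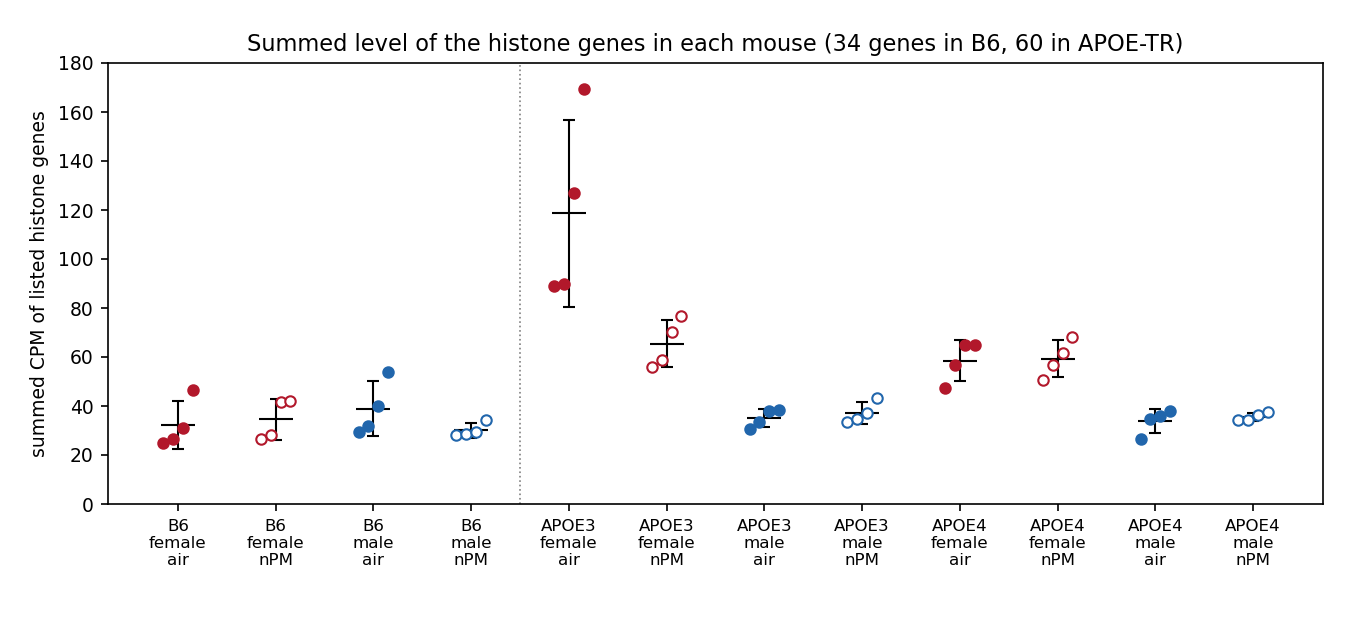
Summed CPM of the listed histone genes in each of 48 mice, 34 genes in B6 and 60 in *APOE*-TR mice, by group; points are mice (filled for air, open for nPM, red for females, blue for males), bars are the mean and SD of 4 mice, and the dotted line separates the 2 tables. The *APOE*3 control females stand between 88.8 and 169 CPM, above the other 28 *APOE*-TR mice.

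The *APOE*-TR sexes were then compared within allele and exposure. In *APOE*3 controls 28 histone genes had reads in every mouse and were tested with limma on log2(CPM + 0.5), a scale that understates changes of low genes. Of these, 27 were higher in females and 23 passed the study's threshold of an unadjusted p under 0.005, all of them higher, where 25.6% of all 16474 genes tested passed in either direction and 13.3% in this direction. At 5% FDR 24 passed (44.0% of all genes). The median difference was 0.95 on the log2(CPM + 0.5) scale against 0.00 over all genes, and in 25 of the 28 every female lay above every male, as did 25.2% of all genes. By class, 2 of 2 H1, 6 of 6 H2A, 14 of 17 H2B, 0 of 1 H3 and 1 of 2 H4 genes passed the threshold. *Hist1h2al*, the processed pseudogene of H2A type, was at 1.92, 2.06, 2.37 and 2.69 CPM in the control females and at 0.140, 0.179, 0.227 and 0.236 CPM in the control males (difference 1.94, SE 0.109, adjusted p = 0.000244 by limma). Its lowest female had several times the level of its highest male. *Hist2h2aa1*, an H2A gene of the Hist2 cluster, was at 2.37, 2.96, 3.96 and 5.10 CPM against 0.149, 0.250, 0.265 and 0.420 CPM (difference 2.33, SE 0.193, adjusted p = 0.00203). *Hist1h1c*, which encodes a linker histone that is abundant in differentiated cells, was at 4.63, 5.57, 6.14 and 9.71 CPM in females and 1.13, 1.503, 1.65 and 1.70 CPM in males (difference 1.71, SE 0.196, adjusted p = 0.00461). For each of these 3 genes the sexes were fully separated. *Hist2h2aa2* (2.23, SE 0.211), *Hist1h2bg* (2.04, SE 0.266), *Hist1h2bh* (1.63, SE 0.170), *Hist3h2ba* (1.51, SE 0.202), *Hist3h2a* (1.26, SE 0.185), *Hist1h2bl* (1.17, SE 0.145) and *Hist1h2bp* (0.96, SE 0.127) complete the 10 genes with the smallest p.

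The sex difference was also present in the other 3 pairs of *APOE*-TR groups, which share no mice with the *APOE*3 controls. In *APOE*4 controls 24 of 26 tested genes were higher in females, 13 passed the threshold, all higher (15.5% of all genes in either direction and 8.37% higher), and the median difference was 0.44. Every female exceeded every male in 15 of the 26, against 12.6% of all genes. Under nPM 16 of 31 genes passed in *APOE*3 mice (14.4% of all genes, 7.19% higher; median difference 0.46) and 15 of 30 in *APOE*4 mice (16.5%, 8.31% higher; median difference 0.40), and all of them were higher in females. The separation was complete in 18 of the 31 (14.3% of all genes) and 17 of the 30 (11.1%). *Hist2h2aa1* in *APOE*4 controls was at 0.954, 1.18, 1.67 and 1.84 CPM in females and 0.133, 0.244, 0.308 and 0.455 CPM in males (difference 1.27, SE 0.170, adjusted p = 0.00134). *Hist1h2al* had a difference of 1.14 (SE 0.163), *Hist1h2bg* of 0.98 (SE 0.133) and *Hist1h1c* of 1.04 (SE 0.181) in these controls. The H2B gene *Hist2h2be*, which is known for polyadenylated transcripts in neurons, did not pass in any of the 4 comparisons. In *APOE*3 controls its females (6.83 to 12.1 CPM) were nevertheless all above its males (4.88 to 6.64 CPM; difference 0.47, SE 0.175, adjusted p = 0.0539), while in *APOE*4 controls the sexes overlapped (0.17, SE 0.161, adjusted p = 0.504). Over all 32 mice, 13 of the 60 genes had every female above every male, and none had every male above every female. They were *Hist1h1c*, *Hist1h2al*, *Hist1h2bf*, *Hist1h2bg*, *Hist1h2bh*, *Hist1h4a*, *Hist1h4c*, *Hist1h4h*, *Hist2h2aa1*, *Hist2h2aa2*, *Hist2h3c1*, *Hist3h2a* and *Hist3h2ba*. The H3 and H4 genes among them had no reads in some males. The same number of reads, or none, gives a higher CPM in the shallower libraries of the females. For *Hist1h4a* the lowest females (0.0722 CPM) and the highest male (0.0595 CPM) had equal estimated reads. Separation of genes with so few reads therefore rests partly on depth. Among genes with reads in all 32 mice, 9 of 24 histone genes, all of classes H1, H2A and H2B, and 3.55% of all 15970 genes were separated in this way.

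**Figure D2:**
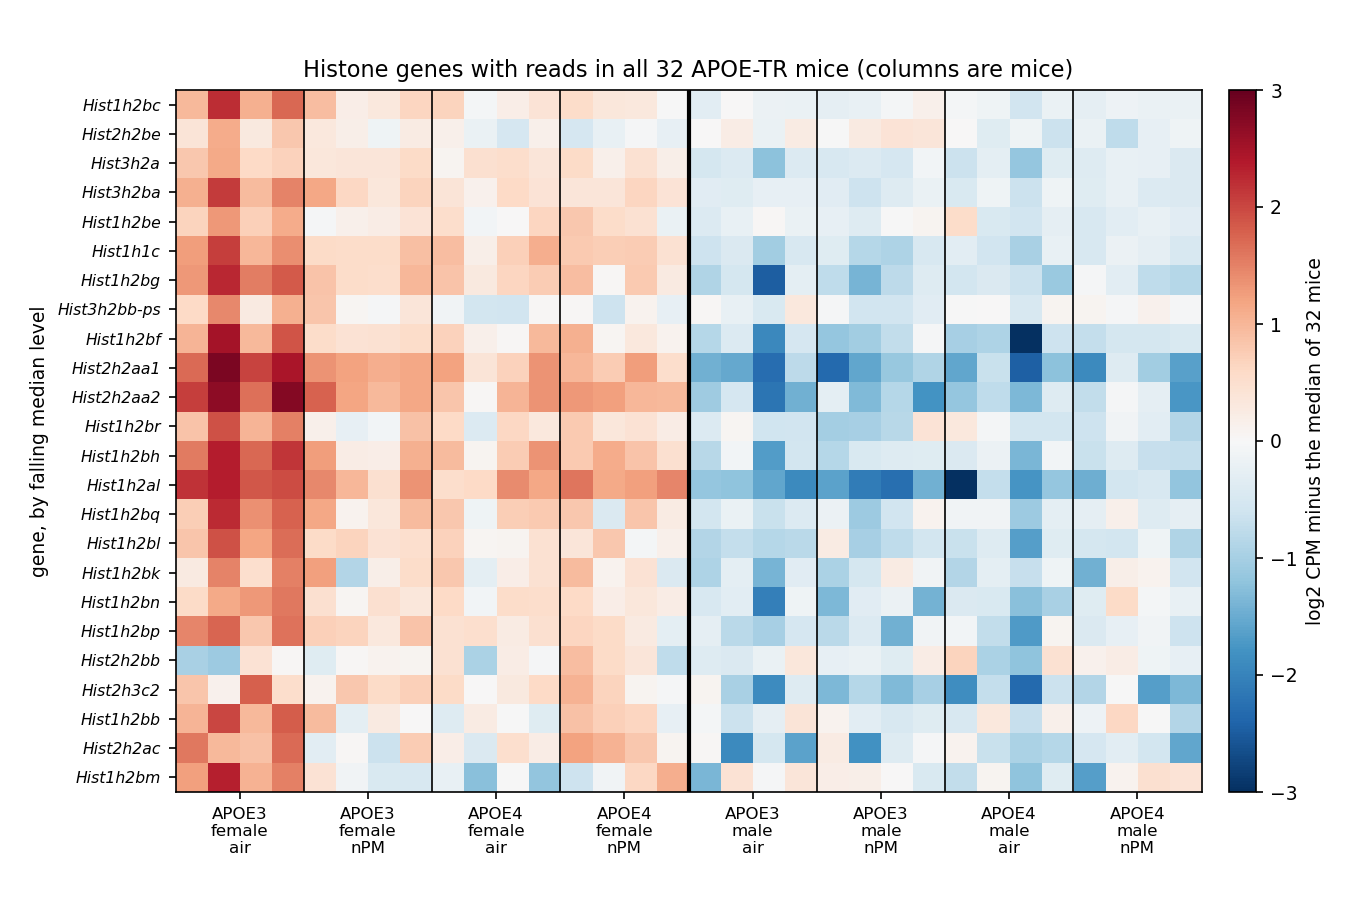
Histone genes with reads in all 32 *APOE*-TR mice; each column is a mouse, each row a gene, and color is log2 CPM minus the gene's median over the 32 mice, with the scale ending at 3 on either side of 0. The thick line separates females (left) from males, and in the first 4 columns, the *APOE*3 control females, most of the 24 genes are at their highest.

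**Figure D3:**
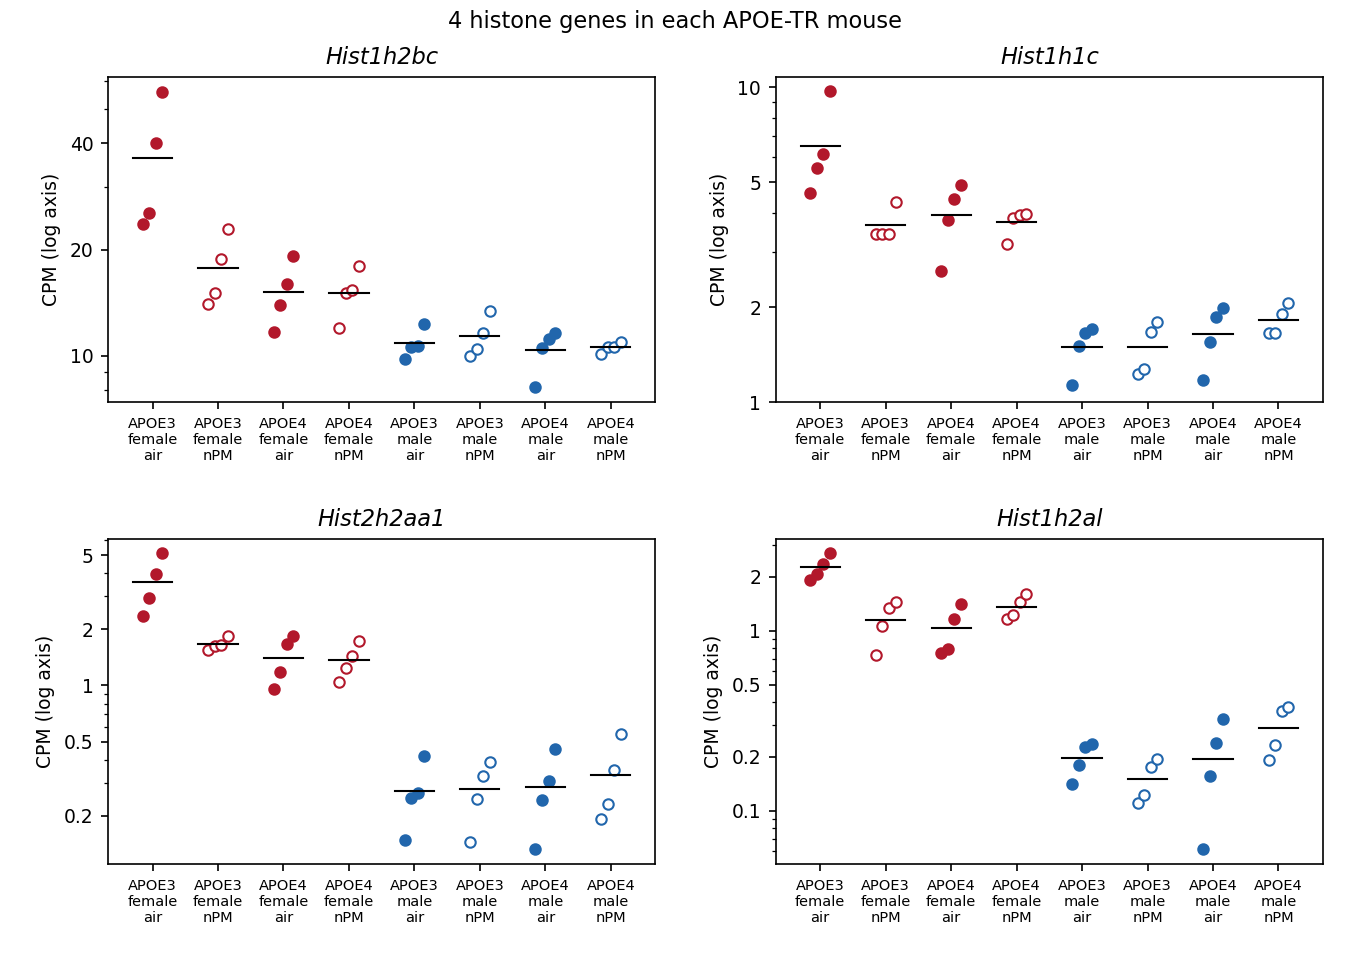
CPM of *Hist1h2bc*, *Hist1h1c*, *Hist2h2aa1* and *Hist1h2al* in each *APOE*-TR mouse, on log axes; points are mice (filled for air, open for nPM, red for females, blue for males) and lines are means of 4 mice. For *Hist1h1c*, *Hist2h2aa1* and *Hist1h2al* all 16 females lie above all 16 males.

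Other measures were also separated by sex in these 32 mice. Females had 17.8 to 22.3 M estimated reads (M, mega) and males 22.4 to 31.3 M, without overlap. A length slope was taken for each mouse, the change in log2 level (against the average mouse) with each doubling of transcript length, and ran from −0.602 to −0.008 in females and from 0.021 to 0.122 in males, so that shorter transcripts were relatively higher in every female. Sex, depth and length slope therefore cannot be told apart in these mice. With the slope as a covariate, 7 of the 28 genes passed the threshold in *APOE*3 controls (4.49% of all genes) and none in *APOE*4 controls (0.970%). Genes of other cell types moved as well. The 7 endothelial markers summed to 35.7 to 68.2 CPM in females and 83.9 to 138 CPM in males, and 6 of the 7 were lower in females in either control comparison. In *APOE*3 controls 4 of 7 microglial markers were higher in females, among them *C1qa* (1.37, SE 0.204), as were 5 of 7 astrocyte and 3 of 7 oligodendrocyte markers. The marker counts were not set beside a share of all genes and are a description only. The sums of these markers did not rank the cell types as the counts do. Oligodendrocyte markers summed to 4880 to 7101 CPM in females and 2979 to 3827 CPM in males, and microglial markers to 327 to 459 and 240 to 257.5 CPM. The astrocyte sums overlapped, at 3816 to 4776 and 3970 to 4132 CPM. All of these markers had reads in every mouse of the fit. Their part in the histone result was not tested, and in bulk tissue fewer cells of a type and less RNA per cell cannot be told apart. The labels for sex hold in all mice, as every female had at least 90.3 CPM of *Xist* and every male at most 0.397 CPM.

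In B6 mice few histone genes had enough reads for a comparison of the sexes. Only 4 histone genes could be tested in B6 controls, and 1 passed, in the opposite direction (14.1% of all genes passed, 6.87% as lower in females). *Hist1h1c* was at 1.30, 2.96, 3.44 and 3.72 CPM in B6 control females and at 7.10, 7.67, 8.60 and 11.4 CPM in control males, without overlap (difference −1.51, SE 0.347, adjusted p = 0.0116 by limma). With the length slope as a covariate it no longer passed. Other measures were also separated by sex in these 8 mice. The 7 neuronal markers summed to 6053 to 6450 CPM in females and 2300 to 5063 CPM in males, the 7 astrocyte markers to 3349 to 3744 and 1601 to 2770 CPM, 7 markers of oligodendrocyte precursors to 116.5 to 133 and 137.5 to 250 CPM, and 11 histone pre-mRNA processing genes to 198 to 212 and 104.5 to 177 CPM. Their part in the *Hist1h1c* difference was not tested. *Hist3h2a* had a difference of 0.20 (SE 0.266), *Hist2h2be* of 0.11 (SE 0.400) and *Hist1h2bc* of −0.01 (SE 0.453), none of which exceeded the spread between mice. Under nPM the *Hist1h1c* values of B6 females (1.35, 3.13, 5.18 and 5.86 CPM) and males (4.37, 5.49, 5.60 and 6.55 CPM) overlapped (difference −0.59, SE 0.414, adjusted p = 0.492 by limma). None of 5 genes tested passed (3.33% of all genes), nor had any an unadjusted p under 0.05 (2402 of 14607 genes in all did). *Hist2h2be* had the smallest p there (0.82, SE 0.399, adjusted p = 0.322). Whether the sex difference of *Hist1h1c* differs between B6 and *APOE*-TR mice was not tested.

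The response to nPM was compared in each sex and genotype, and histone genes were lower with nPM in *APOE*3 females. Of 49 genes tested, 46 were lower, where 49.7% of all genes were higher, and the median difference was −0.38 against 0.00 over all genes. The threshold was passed by 7, all lower (0.671% of all genes passed in either direction and 0.311% lower). None passed 5% FDR by limma (adjusted p = 0.230 for each), and 0 of all genes did. An unadjusted p under 0.05 was found for 29 of the 49, and for 3445 of all 16390 genes tested. On the recovered reads edgeR gave 7 at the threshold (0.738% of all genes) and none at 5% FDR. With a spread shared over all groups of the table, 18 of 24 genes passed the threshold (31.36% of all genes) and 19 passed 5% FDR. The share of all genes past 5% FDR was not counted in this setting, so this count cannot be set against it. In 19 of the 49 every nPM female was below every control, as in 3.85% of all genes. *Hist1h4i*, an H4 gene, was at 0.627, 0.632, 0.990 and 1.20 CPM in controls (15 to 24 reads) and 0.176, 0.184, 0.253 and 0.377 CPM under nPM (4 to 10 reads; difference −0.82, SE 0.149). *Hist2h2aa1* was at 2.37, 2.96, 3.96 and 5.10 CPM in controls and 1.55, 1.63, 1.66 and 1.85 CPM under nPM (−0.82, SE 0.183). *Hist1h2bg*, an H2B gene, was at 3.63, 4.32, 5.27 and 7.07 CPM against 2.14, 2.15, 2.67 and 2.96 CPM (−0.82, SE 0.184). In each of these genes the controls 61 and F6 were the 2 highest mice, while the lowest control was still above the highest nPM female.

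*Hist1h2bh*, another H2B gene, was at 1.70, 1.88, 2.53 and 2.93 CPM in *APOE*3 control females and 0.663, 0.670, 1.19 and 1.37 CPM under nPM (−0.87, SE 0.201). *Hist1h2al* (−0.71, SE 0.162), *Hist1h2be* (−0.62, SE 0.150) and *Hist1h2bm* (−0.55, SE 0.135) were the remaining genes that passed. All 7 had non-overlapping groups. *Hist1h2bm* rests on few reads, 8 to 15 in controls and 2 to 5 under nPM. The most abundant member, *Hist1h2bc*, was at 23.6, 25.4, 40.03 and 56.1 CPM in controls and at 14.0, 15.1, 18.9 and 22.9 CPM under nPM, again without overlap, but its difference of −0.89 (SE 0.262, unadjusted p = 0.00846 by limma) did not pass. *Hist1h4m* was at 0.158 to 0.238 CPM in controls and 0.0361 to 0.0736 CPM under nPM, which is 3 to 5 reads against 0 or 1, and was not tested because 1 mouse had no read.

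The number of calls depended on single mice of both groups. With 1 mouse left out, 1 to 11 genes passed the threshold, namely 1 without nPM female 59, 2 without nPM female 67 or control F6, 4 without control 61 and 11 without control 63. The share of all genes is not given for these fits. Over the 32 *APOE*-TR mice, control 61 was the highest mouse for 31 of the 60 histone genes and control F6 for 15, and in 29 genes they were the 2 highest. Without both, 1 of 50 tested genes, *Hist1h4i*, passed the threshold (−0.59, adjusted p = 0.908; 0.522% of all genes), 44 of 50 were still lower and the median difference was −0.25. These 2 mice also had the lowest length slopes (−0.602 and −0.445, against −0.192 and −0.152 in the other 2 controls and −0.263 to −0.045 under nPM) and the highest sums of 50 listed small RNAs without a poly(A) tail, 30.3 CPM in control 61 and 21.3 CPM in F6, against 9.16 and 11.8 CPM in controls 63 and 52 and 5.66 to 9.56 CPM in the other 28 *APOE*-TR mice. The small nuclear RNA gene *Rn7sk* was at 15.96 and 9.90 CPM in them and at 3.76 and 4.58 CPM in the other controls. *Malat1*, a long nuclear RNA, went the other way, with 86.4 and 140 CPM in controls 61 and F6, 266 and 330 CPM in the other controls and 312 to 711 CPM under nPM. The 7 microglial markers had a median difference of −0.60 with nPM in *APOE*3 females, and none passed the threshold. The part of these measures in the histone difference was not tested. With the length slope as a covariate 2 of the 49 genes passed (0.616% of all genes) and the median was −0.19.

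**Figure D4:**
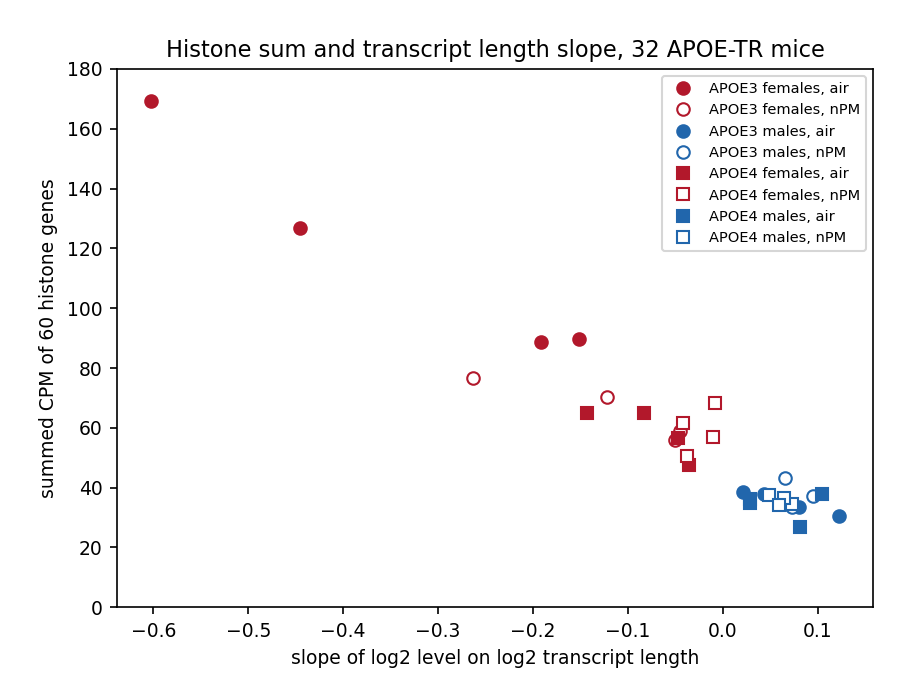
Summed CPM of 60 histone genes against the slope of log2 level on log2 transcript length in each of 32 *APOE*-TR mice; red for females, blue for males, circles for *APOE*3, squares for *APOE*4, filled for air and open for nPM. Males lie at slopes of 0.021 or more and sums of at most 43.2 CPM, and controls 61 and F6 lie apart at the lowest slopes and highest sums.

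No histone gene passed the threshold for nPM in the other 5 strata. In *APOE*4 females 25 of 43 were higher and 18 lower (median 0.00), in *APOE*3 males 18 of 27 were higher (median 0.01), and in *APOE*4 males 18 of 24 (median 0.07). Among all genes 0.266%, 0.154% and 0.178% passed in these strata. At an unadjusted p under 0.05 limma gave 0, 0 and 1 histone genes, against 921 of 16558, 379 of 16894 and 706 of 16866 genes in all. The genes with the smallest p were *Hist2h2ac* in *APOE*4 females (0.22, SE 0.111, adjusted p = 0.754), *Hist2h2be* in *APOE*3 males (0.18, SE 0.120, adjusted p = 1.00) and *Hist1h2bn* in *APOE*4 males (0.28, SE 0.108, adjusted p = 0.956). In B6 mice 6 genes were tested in females (1.18% of all genes passed) and 4 in males (0.234%). None had an unadjusted p under 0.05, where 1533 of 14772 and 668 of 15393 genes in all did. *Hist1h2ac* had the smallest p in B6 females (0.45, SE 0.495, adjusted p = 0.770). *Hist1h1c* had it in B6 males, where it was at 7.10 to 11.4 CPM in controls and 4.37 to 6.55 CPM under nPM, without overlap (−0.62, SE 0.296, adjusted p = 0.999). Over all 48 mice 4 genes were tested and none passed (1.49% of all genes), and *Hist1h2bc* had the smallest p (−0.31, SE 0.148, adjusted p = 0.330).

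The difference between responses was tested as an interaction. In *APOE*3 mice the nPM response was lower in females than in males for 23 of 24 genes and 9 passed the threshold, all lower (5.12% of all genes, 2.17% lower), with none at 5% FDR and a median of −0.59. These were *Hist1h2bh* (−0.96, SE 0.239), *Hist1h2bc* (−0.96, SE 0.264), *Hist1h2bl*, *Hist2h2ac*, *Hist1h2bm*, *Hist2h2aa1*, *Hist2h2aa2*, *Hist1h2bg* and *Hist1h2al*, each with an adjusted p of 0.0921 by limma. Between alleles in females, the response of *APOE*4 exceeded that of *APOE*3 in 24 of 24 genes, of which 9 passed (3.76% of all genes, 1.68% higher) and none at 5% FDR (0.0188%). *Hist1h2al* had the smallest p (1.02, SE 0.198, adjusted p = 0.0699), followed by *Hist1h2bm* (0.75, SE 0.160), *Hist1h2bb* (0.72, SE 0.165), *Hist2h2ac* (0.65, SE 0.149), *Hist2h2aa2*, *Hist1h2bh*, *Hist1h2bc*, *Hist1h2br* and *Hist2h2aa1*. Without controls 61 and F6 none passed for sex (0.602% of all genes) and 3 for allele (1.06% of all genes). In B6 mice none of 4 genes passed for sex (0.864% of all genes), and the smallest p was that of *Hist1h1c* (0.96, SE 0.534, adjusted p = 0.615).

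Alleles were compared at baseline and under nPM. In females under filtered air 44 of 45 genes were lower in *APOE*4 than in *APOE*3 mice and 16 passed the threshold, all lower (5.93% of all genes in either direction and 3.37% lower), with none at 5% FDR (0.231% of all genes; adjusted p = 0.0766 for each by limma) and a median of −0.41. In 24 of the 45 every *APOE*4 female was below every *APOE*3 female (16.5% of all genes). This comparison and the nPM response of *APOE*3 females use the same 4 control mice, so their values are given side by side and not as separate evidence. *Hist1h2al* differed by −0.81 (SE 0.166) between alleles and by −0.71 with nPM, *Hist1h2bg* by −0.89 (SE 0.183) and −0.82, *Hist2h2aa1* by −1.02 (SE 0.222) and −0.82, and *Hist1h4i* by −0.64 (SE 0.141) and −0.82. *Hist1h2bm*, *Hist1h2bb*, *Hist2h2aa2*, *Hist1h2ae*, *Hist1h2bc* and *Hist1h2bp* complete the 10 genes with the smallest p, at −1.11 to −0.43. With a spread shared over all groups, 19 of 24 genes passed (42.2% of all genes) and 21 passed 5% FDR. The share of all genes past 5% FDR was not counted in this setting, so this count cannot be set against it. Without controls 61 and F6, 5 of 45 genes passed (6.50% of all genes), and with the length slope as a covariate none did (2.10%).

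In females under nPM no histone gene passed the threshold between alleles (46 tested, 1 with an unadjusted p under 0.05, 1.16% of all genes past the threshold), nor in males under air (24 tested, 1 with an unadjusted p under 0.05, 1.37%). An unadjusted p under 0.05 was found for 1506 of 16507 and 980 of 16861 genes in all. In males under nPM 1 of 28 passed, as lower in *APOE*4 (1.95% of all genes, 1.14% lower), *Hist2h2be*, which was at 5.56, 6.70, 7.20 and 7.44 CPM in *APOE*3 and at 3.27, 4.69, 4.86 and 5.08 CPM in *APOE*4 males (−0.54, SE 0.135, adjusted p = 0.163). It had the smallest p of the histone genes in 3 of the 4 allele comparisons, with −0.36 (SE 0.127) in nPM females and −0.32 (SE 0.140) in control males. Over all 48 mice, where 4 genes were tested, *Hist2h2be* was again the 1 gene past the threshold (−0.48, SE 0.144, adjusted p = 0.199; 1.81% of all genes, 0.957% lower). It did not pass without the filter, with at least 10 reads in every mouse, with the length slope as a covariate or without controls 61 and F6.

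**Figure D5:**
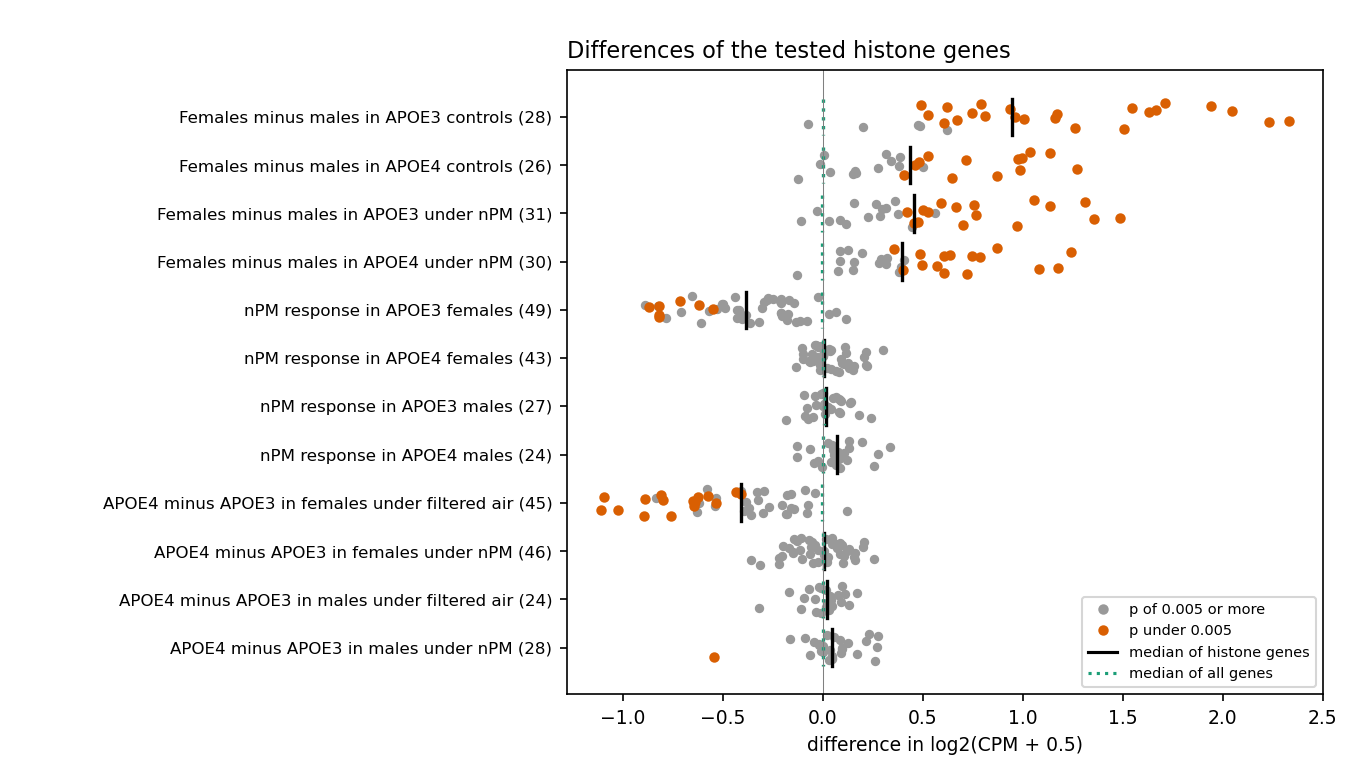
Difference in log2(CPM + 0.5) of each tested histone gene in 12 comparisons of *APOE*-TR mice, with the number of genes tested in brackets; orange points had an unadjusted p under 0.005 by limma, black bars are the median of the histone genes and green dotted bars that of all genes. The medians are 0.95, 0.44, 0.46 and 0.40 for the 4 sex comparisons, −0.38 for nPM in *APOE*3 females and −0.41 for the alleles in control females, and lie between 0.00 and 0.07 in the other 6.

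Gene lists related to the family were set beside it. Replacement histone genes, whose mRNAs carry poly(A) tails, were higher in *APOE*3 control females than males in 10 of 11 cases. The threshold was passed by 6 of them as higher (13.3% of all genes) and by 1 as lower, and their median was 0.83. *H2afj* had the smallest p among them (1.32, SE 0.175). In *APOE*4 controls 4 of 11 passed as higher (median 0.28), as did 8.37% of all genes. With nPM in *APOE*3 females, where 0.671% of all genes passed, none of the 11 did (median −0.36). Their summed CPM was 446, 447, 605 and 778 in *APOE*3 control females, the last 2 being F6 and 61, and 298 to 488 in the other *APOE*-TR mice. Genes of DNA replication and cell division, which are active when most histone mRNA is made, were tested as well. Of 18, 1 passed the threshold between *APOE*3 control females and males, as higher (*Pcna*, 0.94, SE 0.227), where 25.6% of all genes passed. In *APOE*4 controls 0 passed (15.5% of all genes), and 0 for nPM in *APOE*3 females (0.671%). The medians of the 18 were 0.01, −0.05 and −0.08. Their summed CPM was 83.8 to 117 in *APOE*3 control females and 68.2 to 92.5 in the other *APOE*-TR mice. As a check of the tissue label, the 7 neuronal markers summed to 5046 to 7415 CPM in *APOE*-TR mice and, in B6 mice, to 4186 to 6450 CPM in females and 2300 to 5125 CPM in males.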

How the data were processed

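The authors extracted RNA from cerebral cortex, made libraries with a stranded mRNA kit that selects poly(A) RNA, and mapped single-end reads to mm10 (RefSeq) with TopHat2 2.0.8b in Partek Flow, keeping uniquely mapped reads. The deposited values are CPM made by the authors, 1 table for each exposure, on a scale the sources used here do not state. In *APOE*-TR mice they were (reads + 1) times 1 step (93.7% to 94.7% of values of up to 50 reads were within 0.05 of a whole number, and 100% of those of histone genes), so reads were recovered. In B6 mice this held for 65.2% to 83.3%, and the reads given are estimates. Depth was 2.05 to 24.4 M reads (M, mega) in B6 and 17.8 to 31.3 M in *APOE*-TR mice. The column of control F6 bears an animal number that matches no sample title and was assigned to its group by its label.

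TMM factors from edgeR 4.0.16 were applied, log2(CPM + 0.5) was taken, and limma 3.58.1 was run on genes with reads in all mice compared (R 4.3.3, lmFit and eBayes with trend), across the whole table, with Benjamini-Hochberg adjustment. The design had allowed for counts with edgeR, but the values are CPM. Calls used the study's unadjusted p under 0.005 and 5% FDR. Mice are separate animals per the labels, and p-values measure the spread between these mice. In 72 pairs of mice of the same group, counts differed by more than sampling noise.

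On simulated data for the nPM comparison in *APOE*3 females, 199 of 200 genes with a log2 change of 1.5 were recovered at p under 0.005, and 0.475% of unchanged genes were called (16616 genes). At 5% FDR 13 unchanged genes were called. The changed genes were drawn only from genes above a minimum mean of reads that most histone genes do not reach. Their change was also larger than the edgeR median of −0.87 for histone genes. Recovery of genes with few reads or smaller changes was therefore not tested. The 0.475% describes the simulated data. Whether it holds where many genes shift together in single mice was not tested. The real *APOE*3 control females differed in this way, with length slopes of −0.602 in control 61 and −0.445 in control F6. In controls 63 and 52 the slopes were −0.192 and −0.152.

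Histone genes and comparison lists were chosen with earlier results of these data known. Named genes were those past the threshold in a comparison (the 10 with the smallest p where there were more), the smallest p where none passed, the 2 highest per class and table, and those the paper lists. Some genes were named as examples outside this rule, among them *Hist1h2ah* and *Hist1h2bk* for the promoters. *Hist1h4m*, *Hist1h4a*, *Hist1h1a* and *Hist1h2ak* were likewise named for their low values. Alternatives were no rescaling, a pseudocount of 2, no filter, a minimum of 10 reads per mouse, voom weights, edgeR quasi-likelihood on recovered reads, a spread shared over all groups, and each mouse left out. A length slope covariate, leaving out controls 61 and F6, and the sex comparisons under nPM were added after seeing the data.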

Additional observations from a re-analysis of the deposited data

Results flagged for a closer look

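Dixon's ratio, the gap from an extreme mouse to the next over the range of the 4, was taken in 132 sets of 4 mice. They came from 10 named histone genes and the histone sum, each in 12 groups. A flagged mouse need not lie far off. *Hist1h2bh* in *APOE*4 nPM male 33 was flagged at 0.440 CPM, with the other 3 at 0.3487 to 0.3605 CPM. The usual chance rate of about 1 in 20 is for independent sets, while these share mice and include genes with few reads. The flagged share was therefore not compared with it. In 12 of the 132 sets 1 mouse was flagged. In B6 mice these were *Hist1h2bc* in control female 42 (10.2 CPM) and control male 0 (10.99 CPM), *Hist1h4i* in control male 0 (1.65 CPM) and nPM male 10 (0.631 CPM), and *Hist2h2aa1* in nPM female 51 (0.727 CPM) and control male 0 (1.71 CPM). Control male 0 was flagged for 3 of the genes, had the highest histone sum of the B6 mice (54.1 CPM) and the lowest length slope among them (−0.230). In *APOE*-TR mice they were *Hist1h1c* in *APOE*3 nPM female 70 (4.33 CPM, highest) and *APOE*4 nPM female 39 (3.18 CPM, lowest), *Hist3h2a* in *APOE*3 nPM female 70 (7.48 CPM), *Hist1h2bh* in *APOE*4 nPM male 33 (0.440 CPM), *Hist1h4i* in *APOE*4 nPM female 08 (0.524 CPM) and *Hist3h2ba* in *APOE*4 nPM female 27 (6.69 CPM).

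The difference in nPM response passed the threshold for 9 histone genes between the sexes in *APOE*3 mice and for 9 between the alleles in females, at an unadjusted p under 0.005 of the interaction in limma and with none at 5% FDR. Both contrasts contain the *APOE*3 control females and use a spread shared over all *APOE*-TR groups. Without controls 61 and F6 they gave 0 and 3 genes (0.602% and 1.06% of all genes).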

How the results depend on the processing

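Counts of histone genes past p under 0.005 depended on the setting as follows, with the cause not tested unless the setting itself tests fewer genes or mice. Percentages in brackets are shares of all genes past the threshold, and none is given for fits with 1 mouse left out. For nPM in *APOE*3 females the 7 genes became 18 of 24 tested with a spread shared over all groups (31.36%). There 19 histone genes passed 5% FDR, and the share of all genes past 5% FDR was not counted. The 7 became 2 with the length slope as a covariate (0.616%) and 1 without controls 61 and F6 (0.522%). Leaving out 1 mouse gave 1 to 11, with 1 without nPM female 59, 2 without nPM female 67 or control F6, 4 without control 61 and 11 without control 63. For *APOE*4 against *APOE*3 in control females the 16 of 45 became 10 of 18 tested with at least 10 reads (6.30%). It became 0 with the slope (2.10%) and 5 without controls 61 and F6 (6.50%). Leaving out 1 mouse gave 5 (without F6) to 16, and 10, 6, 7, 8 and 10 without *APOE*3 control 61 and *APOE*4 controls 26, 38, 21 and 7. The 1 gene in nPM males became 0 with the slope (1.23%) and 0 to 1 with a mouse left out (0 without *APOE*3 males 56, 58 or 76). The 1 gene over all mice became 0 without filter (1.43%) and with at least 10 reads (1.88%). It also became 0 with the slope (1.16%) and without controls 61 and F6 (0.731%), and stayed at 1 with a mouse left out.

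For the sexes, the settings without filter, with at least 10 reads and with the slope gave 42 of 60, 7 of 9 and 7 of 28 tested in *APOE*3 controls (22.48%, 27.79% and 4.49% of all genes; 23 of 28 as reported, 18 to 24 with a mouse left out), 24 of 60, 5 of 10 and 0 of 26 in *APOE*4 controls (13.46%, 17.29% and 0.970%; 13 of 26, 9 to 16), 28 of 60, 7 of 10 and 5 of 31 in *APOE*3 mice under nPM (12.71%, 15.86% and 10.64%; 16 of 31, 13 to 16) and 24 of 60, 9 of 13 and 0 of 30 in *APOE*4 mice under nPM (14.74%, 18.5% and 1.64%; 15 of 30, 11 to 17). The 1 gene in B6 controls became 0 with the slope (9.74% of all genes) and stayed at 1 with a mouse left out. The sex interaction of 9 genes (5.12% of all genes) became 1 of 7 tested with at least 10 reads (5.49%) and 2 with edgeR (4.99%). It became 1 with the slope (0.557%) and 0 without controls 61 and F6 (0.602%). With a mouse left out it gave 3 to 13 (3 without control 61, 4 without nPM male 53, 5 without F6, nPM female 67 or control male 63). The allele interaction of 9 (3.76% of all genes) became 19 of 60 without filter (3.42%), 2 of 7 with at least 10 reads (4.11%) and 5 with edgeR (3.49%). It became 4 with the slope (1.39%) and 3 without controls 61 and F6 (1.06%), and 6 to 12 with a mouse left out. Comparisons with no gene past the threshold kept 0 under every alternative run. Of the values of named genes under alternatives 1387 kept direction and side of the threshold, 217 kept direction only, and 1 changed sign (*Hist1h2ac* for nPM in B6 females, −0.031 without nPM female 50, and 0.85 at most with another mouse left out).

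Low counts limit what can be seen, since no more than 19 of the 60 genes have a median of 10 or more reads per *APOE*-TR mouse. Adding 0.5 CPM compresses their differences, and edgeR's median for nPM in *APOE*3 females was −0.87 against −0.38 here. Near-identical copies leave single gene values uncertain. In B6 mice the recovered reads are estimates, so edgeR was not run there. DESeq2 had been planned for deposited counts and was not run on the recovered reads. No paired analysis was possible because the mice are separate animals per the labels, which give no pairing between groups.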

Other observations

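Factors that act on histone pre-mRNA ends or histone gene transcription were tested with the same fits. Of 11 such genes, among them *Slbp*, which binds the stem-loop, 0 were higher and 1 lower in *APOE*3 control females than males at p under 0.005, with a median difference of −0.12 on the log2(CPM + 0.5) scale. Among all genes 25.6% passed in either direction, a share that 1 of 11 does not exceed. The lower gene was *Cpsf3*, the endonuclease of pre-mRNA 3′ ends (−0.61, SE 0.119, adjusted p = 0.00932 by limma). In *APOE*4 controls, where 15.5% of all genes passed, *Cpsf3* was again the 1 gene of the 11 that did (−0.38, SE 0.0648, adjusted p = 0.00405 by limma). The median of the 11 was −0.08. None of the 11 passed for nPM in *APOE*3 females, where 0.671% of all genes did (median of the 11 0.04, smallest p for *Sympk* at 0.79, SE 0.351, adjusted p = 0.230 by limma). Their summed CPM was 245 to 301 in the 32 *APOE*-TR mice, a narrower span than the 26.7 to 169 CPM of the histone genes.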
